A study of Bos taurus with 36 samples.

Results

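The WNT ligands, their receptors and the secreted proteins that hold them back or strengthen them were followed in bovine fetal organs and in the blood of the dams. All rows of the gene table whose bovine RefSeq symbol marks a protein-coding WNT, FZD, SFRP, DKK or RSPO gene, or is LRP5, LRP6, ROR1 or ROR2, were taken, which gave 45 of 35092 genes. They comprised 19 WNT ligands, 10 frizzled receptors, 4 LRP or ROR receptors, 4 SFRP antagonists, 4 DKK antagonists and 4 RSPO agonists. The 36 RNA-seq libraries came from 10 male bovine fetuses at Day 42 and their dams, with 9 of heart, 9 of organs labelled gonads, 8 of liver and 10 of maternal blood. Fetuses are numbered by weight from 1, the lightest, to 10. Every heifer received a Day 7 embryo, either on Day 7 of her cycle (ET_D7, 5 fetuses of 1.253 to 1.37 g) or on Day 9 (ET_D9, 5 fetuses of 1.396 to 1.69 g). All 5 ET_D9 fetuses were heavier than the heaviest ET_D7 fetus, so fetal weight and transfer group cannot be told apart in these data.

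WNT proteins are secreted lipid-modified ligands that bind a frizzled receptor. With LRP5 or LRP6 as co-receptor they stabilise beta-catenin, which then acts with TCF and LEF factors on target genes, whereas with ROR1 or ROR2 they signal without beta-catenin, to cell shape and polarity. SFRP proteins bind the ligands outside the cell, and DKK proteins such as DKK1 block the LRP co-receptors. RSPO proteins bind LGR receptors and keep frizzled receptors at the cell surface. The pathway patterns the early heart, the urogenital ridge and the liver lobule.

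Several libraries were not independent of each other. In the libraries labelled gonads, the counts of fetus 8 were 1.27 times those of fetus 6 to within 1.5 counts in 77.7% of 13448 genes, and the median squared difference over genes was 0.000662 of that given by counting noise alone. Livers 1 and 2 differed by 0.244 of counting noise, and a weighted sum of other libraries of the same organ gave back the counts of heart 1 to 0.762 and of liver 9 to 0.220 of counting noise. Where no sum gave a library back, this ratio was at least 4.86 (heart), 5.92 (gonad-labelled libraries), 18.1 (liver) and 13.0 (blood). Means and SDs therefore count gonads 6 and 8 as 1 library and livers 1 and 2 as 1 library, and leave out heart 1 and liver 9, so that every mean ± SD below has n = 8 hearts, 8 gonad-labelled libraries, 6 livers or 10 blood libraries, while ranges and medians cover all libraries. The fits counted all libraries as separate samples, so their SEs and p-values are too small to the extent that libraries repeat each other, and the main counts of calls are also given without heart 1, gonads 6, liver 2 and liver 9. Each fetus gave at most 1 library per organ.

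The labels were checked against defining genes. The 8 cardiomyocyte genes listed were highest in the heart and the 8 hepatocyte genes were highest in the liver. In the libraries labelled gonads the summed level of 9 Sertoli cell genes was 39.1 to 65.7 CPM (counts scaled to a common library size). It was 262 to 473 CPM in the heart and 69.5 to 129 CPM in the liver. GATA4, a transcription factor of the gonadal ridge and 1 of the 9 genes, had 0.0535 ± 0.043 CPM in the libraries labelled gonads. Its mean over all libraries was 299 CPM in the heart and 59.4 CPM in the liver. GATA4 thus made up much of those 2 sums, which are not separate evidence from it. Of 8 germ cell genes 5 were under 1 CPM in every library labelled gonads, DDX4 and DAZL among them at up to 0.258 CPM. Of 7 Leydig cell genes 5 were also under 1 CPM there, the steroid enzymes CYP11A1, CYP17A1 and HSD3B1 included. Other genes of these lists ran the other way. The germ cell genes summed to 21.9 to 36.7 CPM against 8.02 to 14.7 CPM in the heart and 7.36 to 66.3 CPM in the liver, with KIT, a receptor also found outside germ cells, at 27.1 ± 5.19 CPM. The Leydig cell genes summed to 259 to 456 CPM against 46.7 to 67.4 CPM and 110 to 192 CPM, with NR2F2, a factor of many mesenchymal cells, at 360 ± 63.6 CPM. SOX9 of the Sertoli cell list had means over all libraries of 3.03 CPM in the heart, 0.715 CPM in the liver and 3.12 CPM here. CLDN11 of that list was highest here, at 9.55 ± 1.94 CPM. By contrast PAX2, a transcription factor of the kidney ducts, had 115 ± 12 CPM, and 7 nephron progenitor genes summed to 265 to 402 CPM against 33.4 to 83.2 CPM in the heart and 33.4 to 76.2 CPM in the liver, 4 of the 7 being highest here, while CITED1 was highest in the liver and CRYM in the heart. The defining genes GATA4, DDX4, DAZL and CYP17A1 thus went against the label while KIT, NR2F2, CLDN11 and SOX9 did not. The paper places the onset of testis differentiation in cattle close to Day 42. Whether genes of later germ and Leydig cells should be present by then was not tested. These samples are called libraries labelled gonads, or gonad-labelled libraries. Total counts, in units of 1e6, were 20.9 to 35.9 in the heart, 22.8 to 39.6 in the libraries labelled gonads, 18.2 to 34.5 in the liver and 26.6 to 40.8 in blood, and mitochondrially encoded genes took 17.1% to 57.3%, 3.31% to 7.23%, 16.3% to 36.8% and 2.14% to 3.29% of them.

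Most members had at least 1 count in each organ. In the heart 42 of the 45 members had at least 1 count and 30 had a mean of at least 1 CPM, in the libraries labelled gonads 44 and 31, in the liver 39 and 26, and in maternal blood 38 and 8. Fewer were counted in every library of a tissue, namely 31 in the heart, 34 in the libraries labelled gonads, 18 in the liver and 16 in blood. WNT2B had 0 counts in all 36 libraries and was the only member not detected anywhere; 3 counts over the 9 heart libraries would be 0.0142 CPM. WNT1 and WNT8A were at 0 in the heart, the liver and blood and reached at most 2 and 4 counts in a library labelled gonads.

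**Figure D1:**
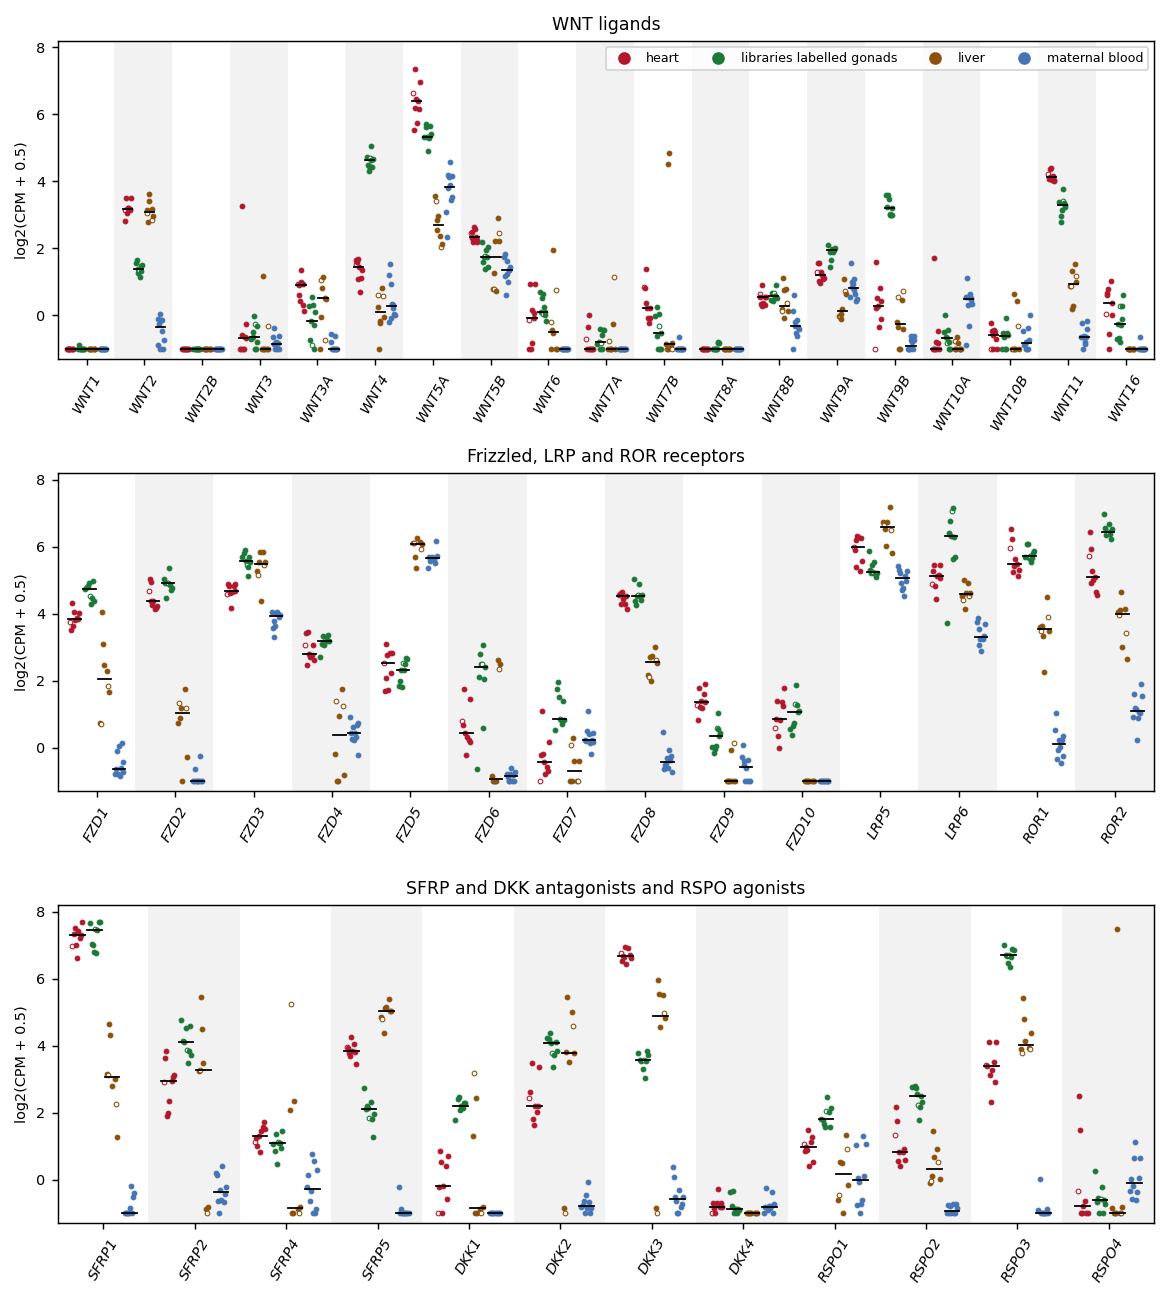
Level of each of the 45 members in every library, as log2(CPM + 0.5), for ligands, receptors, and antagonists and agonists. Each point is a library, in fetus order from left to right within a colour, the short line is the median, and open points are heart 1, gonads 6, liver 2 and liver 9, which other libraries reproduce. Maternal blood was prepared with another kit and scaled apart from the organs. WNT4, WNT9B and RSPO3 stand highest in the libraries labelled gonads, DKK3 and WNT11 in the heart, and FZD5 and SFRP5 in the liver.

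The organs were compared in 1 fit of the 26 organ libraries with edgeR's quasi-likelihood test, in which 44 members and 25095 genes were tested. Against the libraries labelled gonads, 6 members were higher in the heart (23.5% of all genes tested were) and 13 were lower (23.1% of all genes). Against the liver, 18 were higher in the heart (27.9% of all genes) and 8 were lower (30.7%). In the libraries labelled gonads 21 members were higher than in the liver (30.8% of all genes) and 7 were lower (33.6%). Without the libraries that others reproduce, these 6 counts were 7, 12, 17, 8, 21 and 7. The median log2 fold change of the members was −0.14 for heart over gonad-labelled libraries, 0.67 for heart over liver and 1.86 for gonad-labelled libraries over liver, the last 1.45 with members at 0 in an organ set at their bound, beside −0.08, 0 and 0 over all genes tested.

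A member was called highest, or lowest, in an organ where it was higher, or lower, than in both others at an adjusted p under 0.05. DKK3, WNT5A and WNT11 were highest in the heart (3 of 44 members, 11.1% of all genes). In the libraries labelled gonads 10 of 44 members were highest (14.9% of all genes), namely WNT4, WNT9A, WNT9B, FZD1, FZD7, LRP6, ROR2, RSPO1, RSPO2 and RSPO3. WNT7B, FZD5, LRP5, SFRP5 and RSPO4 were highest in the liver (5 of 44, 23.1% of all genes), of which WNT7B and RSPO4 rested on 2 livers and 1 liver. Lowest were 3 members in the heart (8.26% of all genes), 4 in the libraries labelled gonads (13.6%) and 16 in the liver (19.6%), 6 of these 16 being frizzled receptors and 5 WNT ligands. Without the libraries that others reproduce, 4, 9 and 5 members were highest and 3, 4 and 16 lowest; RSPO1 lost its call, FZD9 gained one in the heart, and 9 of the 10 remained in the libraries labelled gonads. Among those lowest in the liver 15 remained, RSPO2 being lost and WNT9B gained. With the fetus as a block, 4, 8 and 3 members were highest in heart, gonad-labelled libraries and liver: WNT9A, FZD1, RSPO1, WNT7B and RSPO4 lost the call, and FZD9 and DKK1 gained one. DKK2 then lost its call as lowest in the heart, DKK3 as lowest in the gonad-labelled libraries, and DKK4 and RSPO2 as lowest in the liver. Some calls also rested on single fetuses: RSPO1 was no longer highest when any fetus but fetus 5 was left out, FZD1 without fetus 4, 5, 6, 8 or 9, WNT7B without fetus 3, 5, 6, 7 or 9, and RSPO4 without fetus 5, which left 3 members highest in the liver. DKK2 lost its call as lowest in the heart without fetus 4, 5, 6, 8 or 9, and DKK3 as lowest in the gonad-labelled libraries without fetus 3, 4, 5, 8, 9 or 10. RSPO2 lost its call as lowest in the liver without fetus 1, 2, 3, 5, 9 or 10. Scaling by library totals without mitochondrial genes and without TMM gave 15 members highest in the libraries labelled gonads, adding FZD2, FZD3, FZD8, ROR1 and WNT8A. All genes shifted with it: 6644 of 25069 were then highest in those libraries, against 3741 of 25095 in the main fit. The median of all genes moved to −0.55 for heart over gonad-labelled libraries and 0.59 for gonad-labelled libraries over liver.

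**Figure D2:**
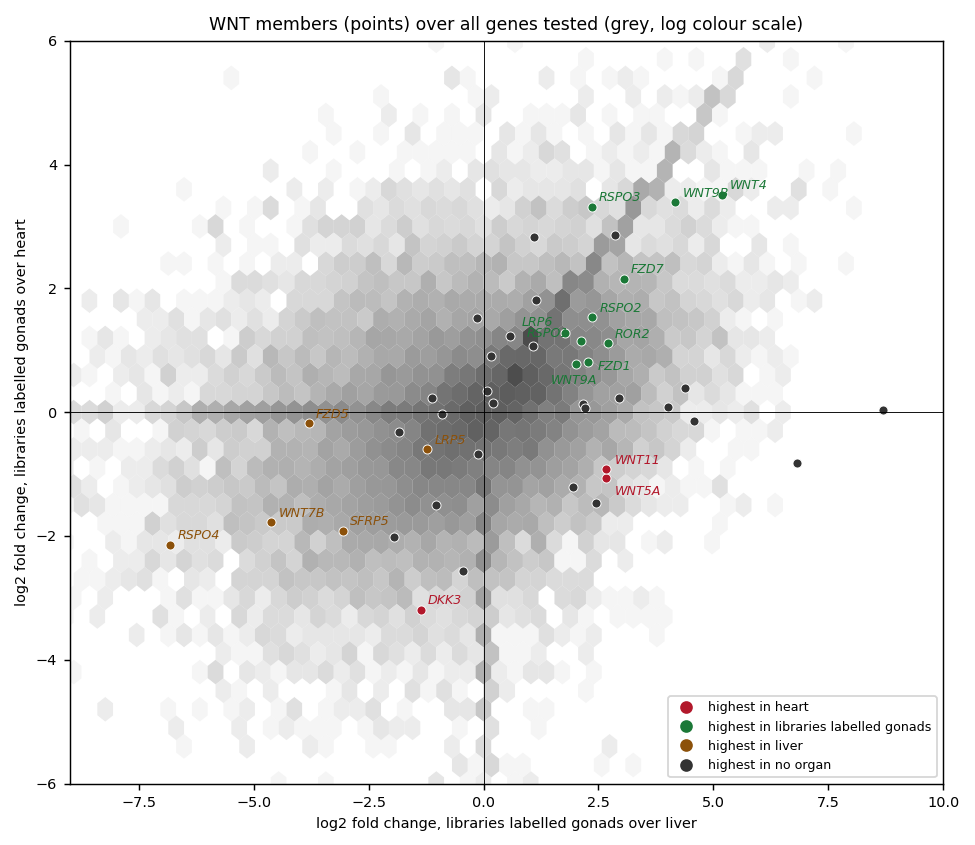
Log2 fold change of 44 members between libraries labelled gonads and liver (horizontal) and between libraries labelled gonads and heart (vertical), over all 25095 genes tested (grey, darker where more genes lie). Coloured points are members highest in 1 organ, and their names are printed; WNT4 and WNT9B lie at the upper right, RSPO4 at the far left.

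Among the WNT ligands, WNT5A (Entrez 530005), the main ligand of signalling without beta-catenin, was high in the heart. Its CPM ranged over the hearts from 45.8 to 162 (median 83.3), over the libraries labelled gonads from 29.3 to 52.2 (median 39.8) and over the livers from 3.61 to 11.3 (median 6.06). The hearts overlapped with the gonad-labelled libraries but lay above every liver. The heart exceeded the gonad-labelled libraries by 1.07 on the log2 scale (SE 0.22, adjusted p = 0.000166, edgeR) and the liver by 3.74 (SE 0.26, adjusted p = 3.7e-13, edgeR). WNT11 (Entrez 613288), a ligand of cell movement in heart formation, had 17.4 ± 2.01 CPM in the heart, 9.17 ± 2.07 CPM in the gonad-labelled libraries and 1.43 ± 0.697 CPM in the liver, and its lowest heart (15.6 CPM) lay above its highest gonad-labelled library (13.2 CPM). Its excess over the gonad-labelled libraries was 0.92 on the log2 scale (SE 0.19, adjusted p = 0.000263, edgeR), and it no longer passed when the counts were scaled by library totals alone (0.44, adjusted p = 0.0592, edgeR).

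WNT4 (Entrez 789600) and WNT9B (Entrez 541243), ligands known for the formation of kidney tubules from mesenchyme, marked the libraries labelled gonads. WNT4 ranged there from 19.4 to 32.6 CPM (median 24.6), against 1.12 to 2.74 CPM in the hearts and 0 to 1.26 CPM in the livers. WNT9B ranged from 7.42 to 11.7 CPM (median 8.65), against 0 to 2.51 CPM in the hearts and 0 to 1.15 CPM in the livers. Neither gene overlapped between these libraries and the other organs. WNT4 exceeded the heart by 3.51 (SE 0.34, adjusted p = 8.2e-10, edgeR) and WNT9B by 3.39 (SE 0.61, adjusted p = 3.4e-05, edgeR) on the log2 scale. Of 7 nephron progenitor genes 4 (SIX2, EYA1, SALL1 and MEOX1) were also highest here, and their part in the difference was not tested. WNT9A had 3.2 ± 0.515 CPM against 1.86 ± 0.392 in the heart and 0.788 ± 0.458 in the liver.

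WNT2 (Entrez 493729) was lowest in the libraries labelled gonads. It had 8.81 ± 1.47 CPM in the heart, 8.72 ± 1.96 CPM in the liver and 2.19 ± 0.316 CPM in the gonad-labelled libraries, where the highest library (2.68 CPM) lay below the lowest heart (6.49 CPM) and the lowest liver (6.42 CPM). The log2 fold change of heart over gonad-labelled libraries was 2.01 (SE 0.16, adjusted p = 3.6e-11, edgeR), and heart and liver differed by 0.06 (SE 0.16, adjusted p = 0.792, edgeR). WNT5B lay between 1.17 and 6.96 CPM in the organs and WNT8B between 0.456 and 1.65 CPM, and neither passed in any contrast. The other ligands were sparse. WNT3A stayed at or under 2.05 CPM, WNT16 at or under 1.53 CPM, WNT7A at or under 1.7 CPM, WNT10B at or under 1.06 CPM and WNT6 at or under 3.39 CPM in every organ library. WNT16 had 0 counts in all 8 livers, so the heart was at least 42.6-fold higher and the gonad-labelled libraries at least 21.2-fold higher against a floor of 3 counts over the livers. WNT10A and WNT3 were carried by 1 heart, that of fetus 3, with 100 and 330 counts. WNT10A passed for heart over liver (adjusted p = 0.0446, edgeR) and WNT3 in no contrast.

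Of the 10 frizzled receptors 6 were lowest in the liver. FZD5 (Entrez 538536) was highest there, with 40.8 to 76.4 CPM in the livers (median 67.3) against 2.7 to 8.06 CPM in the hearts (median 5.22) and 3.03 to 5.85 CPM in the libraries labelled gonads (median 4.51). Every liver lay above every other organ library. The heart was below the liver by 3.62 on the log2 scale (SE 0.21, adjusted p = 1.5e-14, edgeR), and heart and gonad-labelled libraries differed by 0.18 (SE 0.19, adjusted p = 0.466, edgeR). FZD8 had 21.3 ± 2.67 CPM in the heart and 23.6 ± 4.65 CPM in the gonad-labelled libraries against 5.38 ± 1.5 CPM in the liver, and FZD2 had 21.8 ± 6.03 and 29.2 ± 5.52 CPM against 1.32 ± 1.04 CPM; no heart or gonad-labelled library of either gene reached as low as the highest liver. FZD10 had 0 counts in all 8 livers and 8 to 88 and 36 to 155 counts in the other organs, at least 85.8-fold and 82.2-fold above the floor of 3 counts. FZD4 and FZD9 were likewise lowest in the liver.

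FZD3 (Entrez 445419) was lowest in the heart, below the liver by 0.75 on the log2 scale (adjusted p = 0.000101, edgeR). It ranged from 17.5 to 29.1 CPM in the hearts (median 25.1), from 34.3 to 58.9 CPM in the gonad-labelled libraries (median 47.2) and from 20.3 to 57.1 CPM in the livers (median 44.4). Only liver 5 fell into the range of the hearts. FZD1 was highest in the libraries labelled gonads, with 25.4 ± 4.52 CPM against 14.4 ± 2.61 CPM in the heart, by 0.80 on the log2 scale (SE 0.32, adjusted p = 0.0423, edgeR). FZD7 was lower throughout, with 1.93 ± 0.884 CPM there, 0.453 ± 0.513 CPM in the heart and 0.251 ± 0.258 CPM in the liver, and the heart of fetus 3 (1.65 CPM) lay within the range of those libraries. FZD6 had 3.92 ± 2.33 CPM in the gonad-labelled libraries, where fetus 1 stood at 0.135 CPM, and passed in no contrast.

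The co-receptors differed in the organ where they were highest. LRP5 (Entrez 534450) had 94.1 ± 31.7 CPM in the liver, 61.4 ± 17.2 CPM in the heart and 41.2 ± 7.89 CPM in the libraries labelled gonads, with overlapping ranges. Its heart level was 0.62 below the liver (SE 0.17, adjusted p = 0.00252, edgeR) and 0.60 above the gonad-labelled libraries (SE 0.16, adjusted p = 0.00369, edgeR) on the log2 scale, the latter 0.09 with scaling by library totals alone (adjusted p = 0.639, edgeR). LRP6 (Entrez 536328) went the other way, with 12.7 to 142 CPM in the libraries labelled gonads (median 78.4), 21.1 to 43 CPM in the hearts (median 34.4) and 17.2 to 31.2 CPM in the livers (median 23.3). All gonad-labelled libraries but that of fetus 1 lay above all hearts and livers, and the gonad-labelled libraries exceeded the liver by 1.77 (SE 0.28, adjusted p = 3.0e-06, edgeR).

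ROR2 (Entrez 785924), a receptor tyrosine kinase that binds WNT5A, had 73.6 to 126 CPM in the libraries labelled gonads (median 86.5), 23.1 to 85.6 CPM in the hearts (median 33.4) and 5.69 to 24.4 CPM in the livers (median 15.5). Only the heart of fetus 2 reached into the range of those libraries. They exceeded the liver by 2.7 on the log2 scale (SE 0.27, adjusted p = 7.9e-10, edgeR), and the heart was below them by 1.12 (SE 0.24, adjusted p = 0.000342, edgeR). ROR1 had 51.6 ± 20.7 CPM in the heart and 55.7 ± 7.9 CPM in the gonad-labelled libraries against 11.6 ± 5.76 CPM in the liver, where it was lowest, and heart and gonad-labelled libraries differed by −0.07 (SE 0.21, adjusted p = 0.831, edgeR).

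SFRP1 (Entrez 282068) was lowest in the liver. It ranged from 97.1 to 205 CPM in the hearts (median 156) and from 108 to 208 CPM in the gonad-labelled libraries (median 174), and from 1.9 to 24.4 CPM in the livers (median 7.87). Heart and gonad-labelled libraries overlapped almost completely and no liver overlapped with them. The heart exceeded the liver by 3.93 on the log2 scale (SE 0.34, adjusted p = 6.2e-11, edgeR). SFRP5 (Entrez 282069) had the reverse order, with 20.4 to 41.9 CPM in the livers (median 32.1), 10.5 to 18.5 CPM in the hearts (median 13.8) and 1.92 to 6.16 CPM in the gonad-labelled libraries (median 3.86). The organs did not overlap, and the heart was 1.15 below the liver (SE 0.17, adjusted p = 1.6e-06, edgeR) and 1.92 above the gonad-labelled libraries (SE 0.17, adjusted p = 2.5e-10, edgeR). SFRP2 and SFRP4 passed in no contrast.

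DKK3 (Entrez 506627), the divergent DKK family member, was the DKK gene that marked the heart, and any action of it on LRP was not tested. Its hearts ranged from 86.2 to 122 CPM (median 101), the libraries labelled gonads from 7.64 to 13.9 CPM (median 11.4) and the livers from 0 to 61.8 CPM (median 29.3). Every heart lay above every other organ library. The excess of the heart was 3.19 over the gonad-labelled libraries (SE 0.57, adjusted p = 3.2e-05, edgeR) and 1.82 over the liver (SE 0.57, adjusted p = 0.00741, edgeR) on the log2 scale. DKK2 (Entrez 541161), which binds LRP co-receptors, was lowest in the heart, with 5.42 ± 3.09 CPM against 15.8 ± 3.4 CPM in the gonad-labelled libraries and 18.8 ± 15.9 CPM in the liver. DKK1, the classical LRP antagonist, had 2.94 to 5 CPM in the libraries labelled gonads, 0 to 1.31 CPM in the hearts and 0 to 8.51 CPM in the livers, and was lower in the heart than in the gonad-labelled libraries (log2 fold change −2.82, SE 0.95, adjusted p = 0.0153, edgeR). DKK4 was close to absent, with at most 8 counts in a heart, 16 in a gonad-labelled library and 0 in the livers.

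The RSPO agonists were highest in the libraries labelled gonads for 3 of the 4 genes. RSPO3 (Entrez 534650) ranged there from 81.6 to 128 CPM (median 103), against 4.47 to 16.9 CPM in the hearts (median 10) and 13.1 to 42.7 CPM in the livers (median 15.8). No other organ library overlapped, and the heart was below those libraries by 3.32 on the log2 scale (SE 0.24, adjusted p = 2.6e-12, edgeR). RSPO2 had 5.1 ± 1.22 CPM, 1.69 ± 1.12 CPM and 1.05 ± 0.698 CPM in gonad-labelled libraries, heart and liver. RSPO1 had 3.26 ± 0.894, 1.47 ± 0.488 and 0.745 ± 0.733 CPM, and its excess over the heart was 1.15 (SE 0.47, adjusted p = 0.0475, edgeR). In bulk tissue, fewer cells that express a gene and less RNA per cell cannot be told apart, which holds for every difference given here.

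Liver values of several members jumped between fetuses. For 7 members, every liver held either at most 1 count or at least 50 counts, against 0 members in the heart, the libraries labelled gonads and maternal blood. The share of all genes with such liver values was not counted, so the jumps cannot be called particular to the members. DKK2 and DKK3 had at most 1 count in livers 1 and 2 and 203 to 749 and 428 to 1060 counts in the other 6. SFRP2 had 170 to 737 counts in livers 1 to 5 and at most 1 in livers 8, 9 and 10, while FZD6 had at most 1 in livers 1 to 5 and 78 to 133 in livers 8, 9 and 10. These genes took opposite sides of the same split of fetuses. SFRP4 had 70, 802 and 142 counts in livers 1, 2 and 5 and at most 1 in the others. WNT7B had 385 counts in liver 3 and 874 in liver 5, and RSPO4 had 5467 counts (178 CPM) in liver 5, with at most 1 count in each of the other livers. The calls of WNT7B and RSPO4 as highest in the liver therefore described 2 libraries and 1 library. ACTC1, cardiac actin, also had at most 0.0533 CPM in livers 1 and 2 and 1880 CPM in liver 3; its part in these values was not tested.

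**Figure D3:**
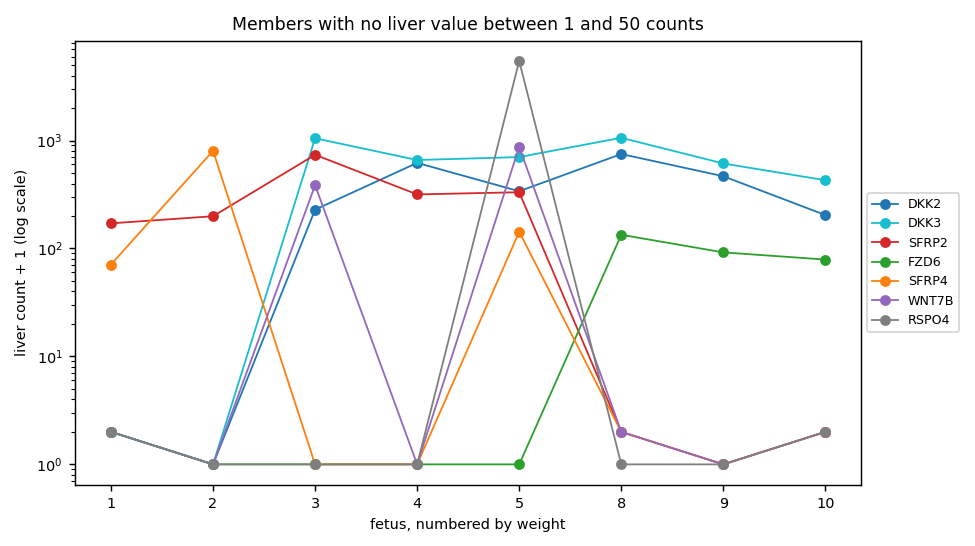
Liver counts plus 1, on a log scale, of the 7 members with no liver value between 1 and 50 counts, for the 8 fetuses with a liver library in order of weight. Lines join the values of 1 gene. SFRP2 falls to at most 1 count in fetuses 8 to 10, where FZD6 has 78 to 133 counts, and RSPO4 has 5467 counts in fetus 5 alone.

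The members followed the dependence between libraries. In gonads 6 and 8 most members lay along 1 line, whereas members at 15 or fewer counts in fetus 6, among them WNT3 with 15, WNT7B with 14 and RSPO4 with 8, stood at 0 in fetus 8. Of the members with more counts, LRP6 (6049 and 8523), FZD6 (231 and 472) and FZD7 (59 and 68) also stood off the line of 1.27. In livers 1 and 2, SFRP4 stood off the line with 70 and 802 counts.

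**Figure D4:**
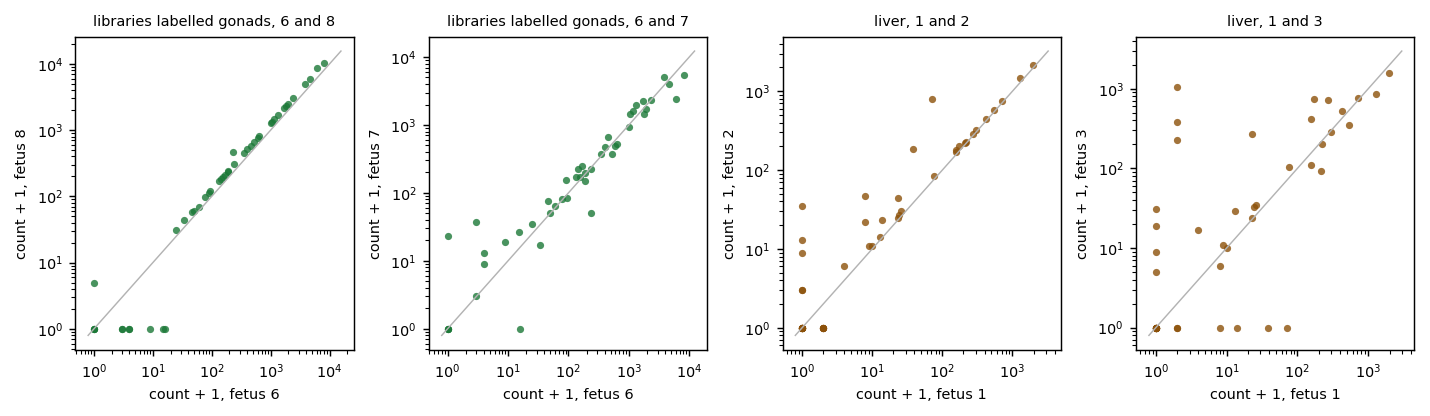
Counts plus 1 of the 45 members in pairs of libraries, on log scales, with the line of equal counts. Gonads 6 and 8 and livers 1 and 2 follow a straight line for most members, with low counts, FZD6 (231 and 472 counts in gonads 6 and 8) and, in the liver, SFRP4 (70 and 802) off it; gonads 6 and 7 and livers 1 and 3 scatter around it.

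In maternal blood, FZD5, LRP5, FZD3, WNT5A and LRP6 were the members with the largest mean counts, not corrected for gene length. FZD5 had 50.7 ± 8.24 CPM, between 40.6 and 72 CPM in the 10 libraries, and LRP5 had 32.5 ± 6.41 CPM. FZD3 had 13.8 ± 2.3 CPM, WNT5A 13.7 ± 5.47 CPM and LRP6 10.1 ± 2.32 CPM. WNT5A was the most variable of these, from 4.58 CPM in the dam of fetus 2 to 23.3 CPM in the dam of fetus 7. The secreted antagonists and agonists were sparse in blood, since no SFRP, DKK or RSPO gene had a mean of 1 CPM. Blood libraries were made with another kit, so blood and organs were not compared. Among counts of 1 to 40, 83.2% to 87.0% were even in blood against 48.5% to 73.1% in the organs, and how read pairs were counted was not given in the sources used here.

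Along fetal weight, each tissue was fitted alone with a spline of 3 degrees of freedom in edgeR, for genes that reached 10 counts in 4 or more libraries. In the heart 1 of 35 members had an unadjusted p under 0.05 (7.99% of all genes) and 0 passed after adjustment (0% of all genes). In the libraries labelled gonads these counts were 6 of 38 (12.6%) and 0 (0%), in the liver 6 of 26 (17.9%) and 1 (1.81%), and in maternal blood 1 of 20 (9.77%) and 0 (0.129%). Without the libraries that others reproduce, 4, 7 and 6 members had an unadjusted p under 0.05 in heart, gonad-labelled libraries and liver. After adjustment 4 members passed in the liver, in a fit of only 6 livers. A negative binomial additive model called 4, 9, 7 and 0 members after adjustment in heart, gonad-labelled libraries, liver and blood. DESeq2's likelihood ratio test called 0, 2, 6 and 0. Shares of all genes are not given here for these alternatives, so their counts cannot be read as particular to the members. No member had an unadjusted p under 0.05 in any tissue when a linear term for weight was fitted beside the transfer group.

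For the same genes, two-sided exact permutation tests of the Pearson correlation between level and weight gave an unadjusted p under 0.05 for 3 of 35 members in the heart (27.9% of all genes) and 6 of 38 in the libraries labelled gonads (6.66%). In the liver there were 4 of 26 (16.9%) and in maternal blood, with 100000 permutations, 0 of 20 (9.64%). No member passed after adjustment over all genes in any tissue.

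SFRP2 was the member that passed in the liver (spline adjusted p = 0.00253, edgeR). Its livers stood at 9.07, 9.21, 43.4, 22.3 and 10.8 CPM in fetuses 1 to 5 and at 0.0422, 0 and 0.0654 CPM in fetuses 8, 9 and 10. The 5 ET_D7 fetuses, at up to 1.37 g, did not overlap with the 3 ET_D9 fetuses, at 1.565 g and above. Pearson's r was −0.87 (exact permutation p = 0.0145, adjusted p = 0.201) and Spearman's rho −0.55 (exact permutation p = 0.171), and with the group means removed r was 0.40.

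WNT5A in the liver had lower values in heavier fetuses but did not pass after adjustment. Its 8 livers held 11.3, 10.1, 5.36, 6.77, 7.33, 4.72, 3.61 and 3.92 CPM from fetus 1 to fetus 10, fetuses 6 and 7 having no liver library. The 3 heaviest fetuses had the 3 lowest values. Pearson's r was −0.93 (exact permutation p = 0.000422, adjusted p = 0.0882) and Spearman's rho −0.90 (exact permutation p = 0.00456, adjusted p = 0.194). Leaving out fetuses 9 and 10, whose weights lie farthest from the median, gave −0.91 (exact permutation p = 0.0139). Within transfer groups r was −0.68 (exact permutation p = 0.0361). Without livers 2 and 9, r was −0.92 (exact permutation p = 0.00833), but the unadjusted spline p rose from 0.0128 to 0.364 and the adjusted p of the linear slope was 0.647 (edgeR). The slope was −0.35 on the log2 scale per 0.1 g (SE 0.08, adjusted p = 0.0503, edgeR), and the spline did not pass (adjusted p = 0.183, edgeR). No liver library lay between 1.37 and 1.565 g. SFRP1 also had an unadjusted p under 0.05 in the spline and the linear fit, with a slope of −0.56 per 0.1 g (SE 0.21, adjusted p = 0.194, edgeR) and its highest values, 24.4 and 19.3 CPM, in fetuses 3 and 4. Without livers 2 and 9 its spline passed (adjusted p = 0.00743, edgeR), as did those of SFRP2, DKK2 and DKK3, the last pair with 0 or 1 count in livers 1 and 2. That fit had 6 livers for a spline of 3 degrees of freedom, which leaves little to measure the spread. With liver 2 left out, the low DKK2 and DKK3 values rested on liver 1 alone. Their linear slopes in the same livers did not pass (unadjusted p = 0.782 and 0.88, edgeR). The share of all genes passing in that fit is not given here. WNT9A and WNT5B had higher liver values in heavier fetuses. Pearson's r was 0.89 (exact permutation p = 0.011, adjusted p = 0.195) and 0.76 (exact permutation p = 0.0433, adjusted p = 0.277). With the group means removed, r was −0.15 and 0.14. Linear slopes were positive for 13 of 26 liver members.

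**Figure D5:**
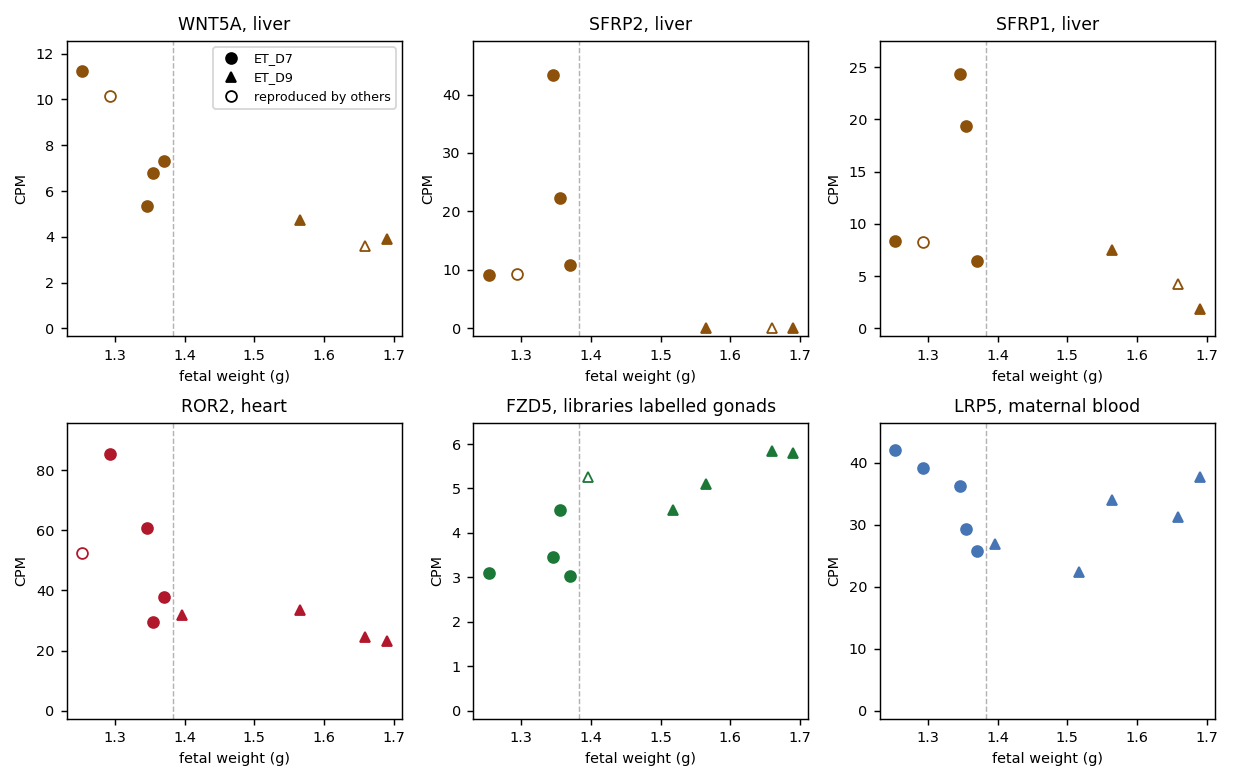
Level in CPM against fetal weight in g for the members named by the trend rule in liver, heart, libraries labelled gonads and maternal blood. Circles are ET_D7, triangles ET_D9, open symbols libraries that others reproduce, and the dashed line separates the transfer groups. WNT5A in the liver goes from 11.3 CPM in fetus 1 to 3.92 CPM in fetus 10, SFRP2 drops to near 0 in the ET_D9 livers, and FZD5 in the libraries labelled gonads reaches 5.85 CPM in fetus 9.

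In the heart ROR2 was the member with the smallest spline p (unadjusted p = 0.0378, adjusted p = 0.601, edgeR). It had 52.6, 85.6, 60.8, 29.5 and 37.9 CPM in hearts 1 to 5 and 31.8, 33.4, 24.6 and 23.1 CPM in hearts 6, 8, 9 and 10. The 3 lightest fetuses stood highest and the 2 heaviest lowest. Pearson's r was −0.75 (exact permutation p = 0.0187, adjusted p = 0.12) and rho −0.83 (exact permutation p = 0.00827, adjusted p = 0.133). It rested on fetuses 9 and 10, without which the exact permutation p was 0.177 at r = −0.57, and within the transfer groups r was −0.46 (exact permutation p = 0.0764).

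In the libraries labelled gonads FZD5 had an unadjusted p under 0.05 in both fits. Its level was 3.11, 3.46, 4.51 and 3.03 CPM in the 4 ET_D7 fetuses and 5.26, 4.51, 5.1, 5.85 and 5.81 CPM in the 5 ET_D9 fetuses. Only fetus 4 reached the lowest ET_D9 value. Pearson's r was 0.84 (exact permutation p = 0.00693, adjusted p = 0.737) and rho 0.90 (exact permutation p = 0.00203, adjusted p = 0.555). These count gonads 6 and 8 as separate, and r was 0.93 without gonads 6 and 0.83 without gonads 8. The correlation over the 7 lighter fetuses was 0.74 (exact permutation p = 0.0593), and within the groups 0.46 (exact permutation p = 0.167). WNT3 had the smallest spline p there (unadjusted p = 0.0111, adjusted p = 0.257, edgeR) at 0 to 0.497 CPM, and in maternal blood LRP5 did (unadjusted p = 0.0254, adjusted p = 0.456, edgeR), with 22.4 CPM in the dam of fetus 7 and 42 CPM in that of fetus 1.

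The slope along weight was compared between the organs in 1 fit, in which 3 of 40 members differed after adjustment (6.2% of all genes). These were SFRP2 (adjusted p = 0.00207, edgeR), SFRP4 (adjusted p = 0.00686, edgeR) and FZD6 (adjusted p = 0.00868, edgeR), all among the members whose liver values jumped. The heart slope minus the liver slope, on the log2 scale per 0.1 g, was 2.52 for SFRP2, 2.74 for SFRP4 and −2.36 for FZD6. With the fetus as a block 2 passed, SFRP4 having an adjusted p of 0.152 (edgeR). Without the libraries that others reproduce 1 of the 3, SFRP2, passed (adjusted p = 0.0277, edgeR); SFRP4 had an adjusted p of 0.281 and FZD6 of 0.0843.

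Other genes of the pathway, from lists of the pathway's known parts, were described by the same rule. Of 15 common beta-catenin target genes tested, 9 were highest in the libraries labelled gonads (14.9% of all genes were), 1 in the heart (11.1%) and 1 in the liver (23.1%). Without the libraries that others reproduce these were 8, 1 and 1. The median log2 difference of those libraries from the mean of heart and liver was 1.05, beside −0.03 over all genes tested and 0.99 over the 44 members. NOTUM, an enzyme that removes the lipid of WNT proteins, led with 2.16, and RNF43, which takes frizzled receptors off the surface, was at the other end with −1.04. AXIN2, a feedback target, had 28.6 ± 5.35 CPM there, 11.8 ± 4.81 CPM in the heart and 3.92 ± 1.49 CPM in the liver.

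Among 12 other receptors and turnover genes, 7 were highest in the libraries labelled gonads (14.9% of all genes were). Without the libraries that others reproduce, 5 were. PTK7, a polarity co-receptor, led with 133 ± 22.3 CPM against 63.7 ± 9.86 CPM in the heart and 9.2 ± 4.06 CPM in the liver. The lists share genes with the target list: LGR5, RNF43 and ZNRF3 here, NOTUM and APCDD1 among inhibitors, TCF7 and LEF1 among nuclear factors. Their counts are therefore not independent. Of 12 other extracellular inhibitors 4 were highest in the libraries labelled gonads (14.9% of all genes) and 3 in the heart (11.1%). FRZB, with 135 ± 27.7 CPM, was among the latter. At the ends of that list stood CER1, listed at 0 in all livers, and DKKL1, with a difference of −2.17. Of 18 cytoplasmic genes 5, of 12 nuclear factors 5 and of 11 planar cell polarity genes 3 were highest in the libraries labelled gonads, beside the same 14.9% of all genes, and 4, 4 and 2 were without the libraries that others reproduce. The ends of these lists were APC2 (1.97) and FRAT2 (−0.78), PYGO1 (2.10) and BCL9L (−0.83), and CELSR2 (2.31) and CELSR3 (−1.73). For ligand secretion, WLS, the WNT carrier, had 48 ± 16.3 CPM in the heart, 48 ± 10 CPM in the gonad-labelled libraries and 5.73 ± 3.26 CPM in the liver, while PORCN, which attaches the lipid, had 9.99 ± 2.41, 17.9 ± 4.59 and 83 ± 29.5 CPM. Liver was thus low in the carrier and high in the acyltransferase.

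Of the WNT genes, 4 pairs are direct neighbours among protein-coding genes in the RefSeq assembly ARS-UCD2.0. WNT9B had 9.24 CPM in the libraries labelled gonads and WNT3 0.188 CPM, on a scale not corrected for gene length. WNT9A had 3.2 CPM there and its neighbour WNT3A 0.475 CPM. WNT6 and WNT10A, and WNT1 and WNT10B, had means under 1 CPM in every organ. Of the 45 members 10 overlap another annotated gene, WNT5A, WNT11, DKK2, DKK3 and LRP6 among them, and whether counting used the strand was not given in the sources used here, so reads of such pairs may not be told apart.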

How the data were processed

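The authors trimmed reads with Trimmomatic, mapped them with STAR 2.7.0b to the bovine genome (ARS-UCD1.3) and deposited featureCounts (Subread 2.0.3) read counts per gene. Organ and blood libraries came from different stranded kits. The members and lists used here were chosen with earlier results of these data known. Symbols came from RefSeq (ARS-UCD2.0), which matched 31630 of 35092 gene identifiers.

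Counts were normalised by TMM within the organs, and within blood, and tested with edgeR 4.0.16 quasi-likelihood fits in R 4.3.3 with Benjamini-Hochberg adjustment over all genes. The organ fit used genes with at least 1 count and the weight fits genes reaching 10 counts in 4 or more libraries. Correlations used log2(CPM + 0.5). The scripts were tested on simulated data. Alternatives were DESeq2 1.42.0, other scaling, filters, the transfer group, mgcv 1.9.3 additive models, leaving out fetuses or dependent libraries, and the fetus as a block. Leaving out dependent libraries and scaling by totals without TMM were chosen after seeing the data. Organs of 1 fetus are paired by animal; correlations of their deviations over 23 pairs ran from −0.37 to 0.40 (median 0.03).

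Members named were the first 5 highest in each organ at a mean of 1 CPM, the highest member of each role in each organ, the first 5 in blood, those with the smallest spline p along weight, an adjusted p under 0.05, or an unadjusted p under 0.05 in both spline and linear fits, those at 0, and the extreme genes of each pathway list; other genes were described after their values were seen. P-values measure the spread between libraries, some of which repeat each other. Transcript lengths were not used, so where members were picked by their mean count, the order between genes is not corrected for length.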

Additional observations from a re-analysis of the deposited data

Results flagged for a closer look

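In 7 of 58 groups tested for the named members, the highest or lowest library stood farther from the rest than Dixon's critical value. That value assumes independent, normally distributed libraries, whereas some libraries repeat each other. RSPO4 was also named through its outlying liver, so the count is not set against chance. In the liver, DKK2 and DKK3 were at 0 CPM in fetus 2, which was counted with fetus 1 as 1 library, and RSPO4 was at 178 CPM in fetus 5 against at most 0.0654 CPM elsewhere. In the heart, FZD3 was at 17.5 CPM in fetus 5 against 23.3 to 29.1 CPM, and WNT3 at 9.21 CPM in fetus 3 against at most 0.336 CPM. LRP6 was at 12.7 CPM in the library labelled gonads of fetus 1 against 49.1 to 142 CPM in the others. FZD5 was at 72 CPM in the blood of the dam of fetus 9 against 40.6 to 52.3 CPM in the other dams.

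The slope along fetal weight differed between the organs by a test of the difference itself for SFRP2 (adjusted p = 0.00207, edgeR), SFRP4 (adjusted p = 0.00686, edgeR) and FZD6 (adjusted p = 0.00868, edgeR). Each of the 3 had livers at 0 or 1 count beside livers at 50 or more. Of all genes tested 6.2% passed this test, a share near that of the members. Without the libraries that others reproduce, SFRP2 passed and SFRP4 and FZD6 did not.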

How the results depend on the processing

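Of the counts of members, 371 values under other settings stayed within 1.5 times the count given and 74 moved, and of the values of single members 354 kept direction and side of the threshold, 15 lost their call, 4 gained one and 6 changed sign. DESeq2 gave 10 members higher in the heart than in the gonads, 5 highest in the heart and 3 highest in the liver. With the fetus as a replicate block, 5 members were higher in the liver than in the heart, 4 higher in the liver than in the gonads and 3 highest in the liver. Asking also for a log2 fold change above 1 left 5 higher in the liver than in the heart and 1 lowest in the heart, and scaling by totals without TMM left 2 lowest in the gonads. The smaller log2 fold change that made RSPO4 highest in the liver became −3.59 with DESeq2, −1.54 with the block and −5.65 without fetus 5 (−5.65 to 6.04 leaving out each fetus), and that of WNT7B −3.04 with DESeq2, which called it highest in the heart, and −0.9 with the block.

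Along weight, unadjusted counts for heart, gonads, liver and blood were 5, 5, 4 and 0 with a linear term, 0 in each with the transfer group as covariate, 5, 10, 4 and 1 for the transfer group in place of weight, and 6, 14, 8 and 4 with the additive model, and DESeq2 gave 3 in blood. Adjusted counts were 4, 9, 7 and 0 with the additive model. Shares of all genes are not given here for these settings. DESeq2 gave 2 in the gonads and 6 in the liver, where the linear fits gave 0 and a filter of 1 count gave 2. Without heart 1, gonads 6, livers 2 and 9 the heart had 4 (unadjusted) and the liver 4 (adjusted, fitted to 6 livers), and 1 member differed in slope. Leaving out gonads 8 and liver 1 instead gave 4, 4 and, in the gonads, 3. Correlated members numbered 0, 1, 1 and 1 with group means removed, 1 in the heart without the 2 outermost fetuses and 1 in the gonads without fetus 8, and r of SFRP2 in the liver became 0.4.

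Leaving out each fetus gave 3 to 5 members highest in the liver and 2 to 5 differing in slope. Unadjusted spline counts were 0 to 4 in the heart, 2 to 17 in the gonads and 0 to 2 in blood, adjusted ones 0 to 3 in the gonads and 1 to 3 in the liver, and correlated members 2 to 6 in the heart, 1 to 6 in the gonads and 0 to 2 in blood. The extremes came without fetus 5 (3 highest in the liver), fetus 3 (5 in slope, 6 correlated in the heart, 2 by spline in the gonads), fetus 10 (17 by spline in the gonads) and fetus 8 (1 correlated and 3 adjusted in the gonads). The causes were not tested. Depth limits members at a few counts, for which intervals would cover counting error only.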
